A study of Mus musculus with 6 samples.

Results

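The genes described here are 8 transcription factor genes used as markers of surface ectoderm, the sheet of embryonic cells outside the neural plate that becomes epidermis and placodes. They are Tfap2a, Tfap2c, Gata2, Gata3, Grhl2, Grhl3, Dlx3 and Dlx5. They were taken by name, as all probe sets that the array's annotation gives to one of the 8 symbols, whatever their signal. This gave 17 probe sets of 45037 tested, and every gene had at least 1. The RNA came from node and primitive streak regions microdissected from mouse embryos at embryonic day 7.75 to 8 (0 to 2 somites), on a mixed background of C57BL/6 and 129/Sv. One group was Wnt3a null and the other Wnt3a wild type, and no further allele or agent is given for either. Each genotype had 3 arrays, and each array held amplified RNA of 3 stage-matched embryos, so 9 embryos stood behind a genotype and a pool hides differences between its embryos. The comparison asked which transcripts depend on Wnt3a, a secreted Wnt ligand made in this region.

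The members belong to 4 families of DNA-binding proteins. Tfap2a and Tfap2c encode AP-2 alpha and AP-2 gamma, which bind GC-rich palindromes. Gata2 and Gata3 encode zinc finger proteins, Grhl2 and Grhl3 encode grainyhead-like factors that switch on epithelial junction genes and are needed for neural tube closure, and Dlx3 and Dlx5 encode distal-less homeodomain proteins. In the early embryo BMP signalling favours these genes on the non-neural side of the ectoderm, while the neural plate lacks most of them. Several also mark other tissues: Tfap2c marks trophoblast and primordial germ cells, Gata2 and Gata3 mark trophoblast, and Gata2 marks early blood and endothelial progenitors. In a dissected region, fewer cells of a type and less RNA per cell cannot be told apart.

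The arrays were alike in overall signal, with medians of 73.6 to 86.1. Over all probe sets, log2 signals of arrays of one genotype correlated at 0.903 to 0.916, and those of different genotypes at 0.902 to 0.912. Wild-type pool 1 stood apart in sex composition: the Y-linked Eif2s3y had a signal of 4.31 there, against 1053 to 1788 in the other 5 pools. The ratio of Gapdh signal at the 3' over the 5' end, often read as RNA integrity, was 2.09 to 2.39 for null pools and 2.51 to 3.00 for wild-type pools. This ratio did not overlap between the genotypes, whereas the beta-actin ratio did, at 2.38 to 3.83 and 2.68 to 3.69. Whether RNA integrity or the amplification of the RNA set the Gapdh ratio was not tested. The part of either in the differences below was not tested. The probe set of Wnt3a had a log2 difference of -0.10, and since the altered part of the gene is not given it does not check the labels. Axin2, a feedback target of Wnt signalling, had signals of 1291, 1224 and 1289 in null and 2602, 2806 and 2472 in wild-type pools. Of 11 measured node and streak genes of a list that includes Axin2, the labelled tissue, none lay below the median probe set signal of 71.5, and 10 were lower in value in null pools.

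None of the 17 probe sets passed the test for a genotype difference. The members went both ways: 10 probe sets had a higher and 7 a lower mean log2 signal in null pools, beside 51.7% of all probe sets higher. The median log2 difference, null minus wild type, was 0.17 over the 17 and 0.01 over all probe sets. The members' median was 0.03 without wild-type pool 1, 0.27 without wild-type pool 3 and 0.05 with array weights. Taking for each gene its main probe set, the one with the highest mean log2 signal, 4 genes were higher and 4 lower in value. Higher values were those of Tfap2c, Gata2, Grhl2 and Gata3, and lower ones those of Dlx3, Grhl3, Dlx5 and, by a log2 difference of -0.01, Tfap2a. Adjusted p-values of the 17 ran from 0.991 to 1.00 (limma, Benjamini-Hochberg over all probe sets). The same fit called 0 of 45037 probe sets (0%), with a smallest adjusted p of 0.245. At an unadjusted p under 0.05 it held 1280 probe sets higher (2.84%) and 993 lower (2.2%), and 0 of the 17 were among them.

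The test left room for changes of some size. All 17 intervals included 0. For 4 probe sets the 95% interval lay within a change of 1 on the log2 scale in either direction: the main ones of Tfap2a, Dlx5, Grhl2 and Gata2. For 6 the interval reached below -1 and for 9 it reached above 1. The null signals lay above all wild-type signals for 1 member probe set, of Gata2, and below all of them for 0. Among all probe sets these shares were 5.57% and 4.41%.

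**Figure D1:**
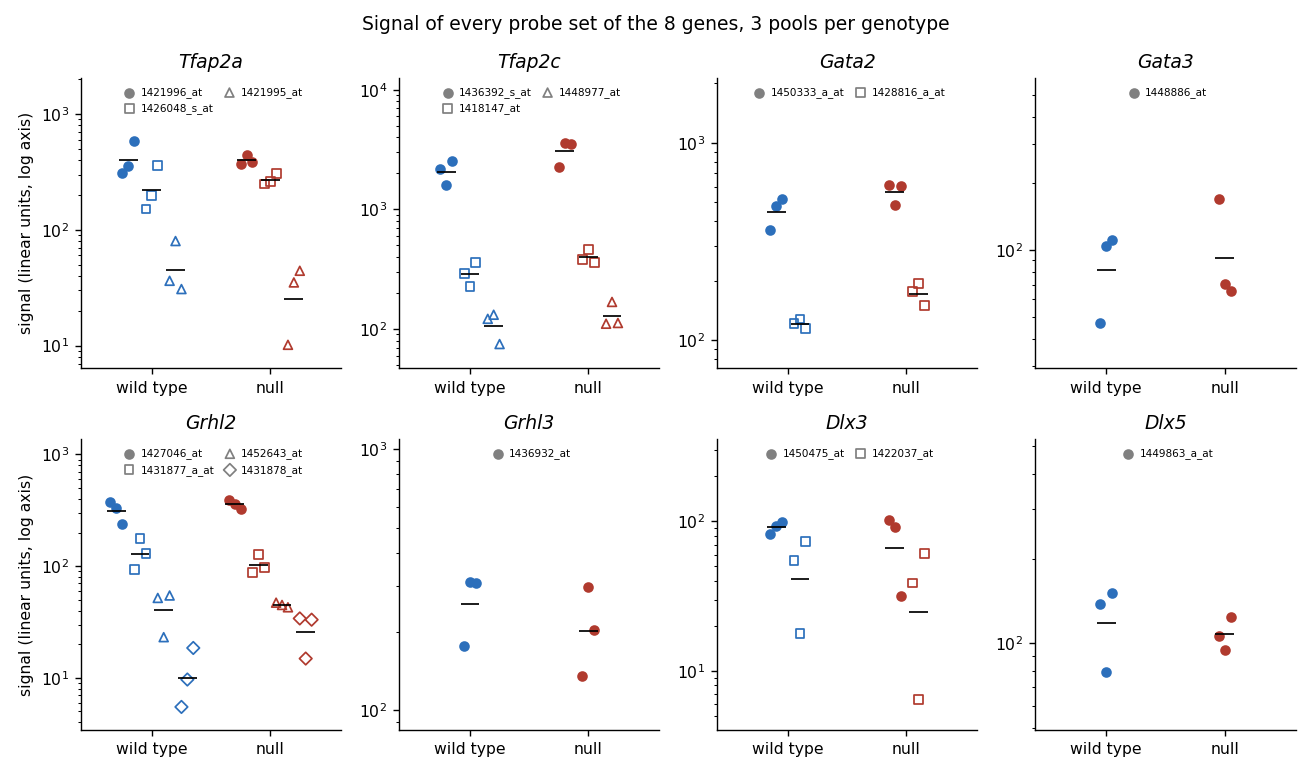
Signal of each of the 17 probe sets on a log axis, 1 panel per gene with its own range, with 1 point per pool (3 wild type in blue, 3 null in red). Filled symbols are a gene's main probe set, open symbols its other ones, and bars the mean of the log2 values. Only the open squares of Gata2 (1428816_a_at) do not overlap between genotypes.

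**Figure D2:**
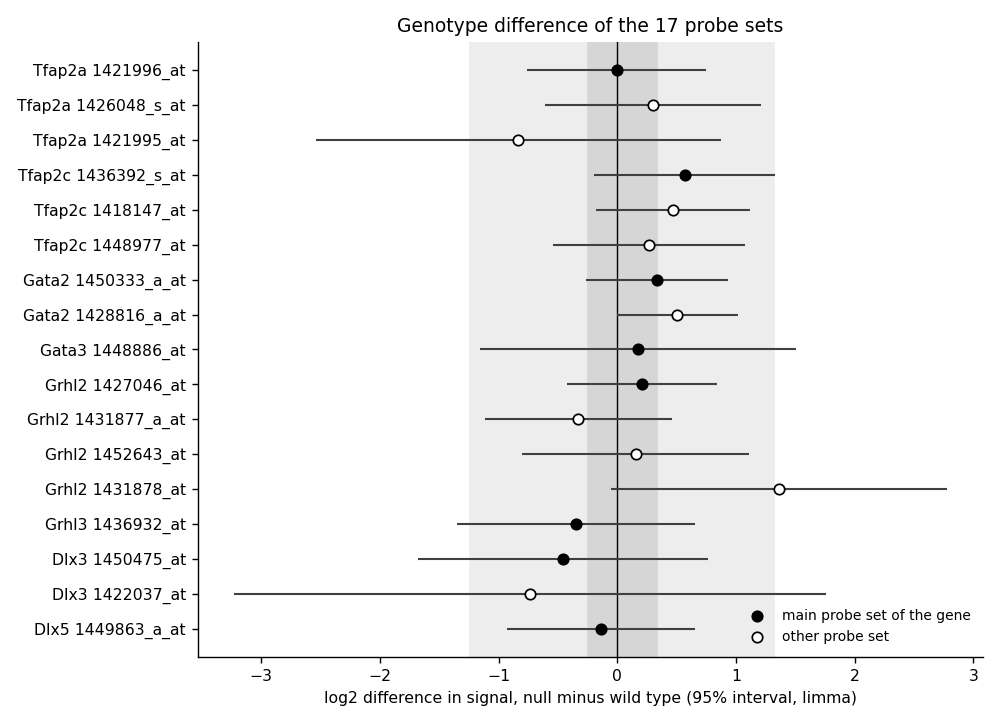
Log2 difference in signal, null minus wild type, for the 17 probe sets, with 95% intervals from limma (n = 3 pools per genotype). The dark and light bands hold the middle 50% and 90% of differences over all 45037 probe sets, and all 17 intervals include 0.

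Tfap2c, the AP-2 gene of trophoblast, germ cell precursors and early ectoderm, had higher mean values in null pools on all 3 of its probe sets. On the main one, 1436392_s_at, the signal was 2248, 3581 and 3548 in null pools and 2159, 1603 and 2532 in wild-type pools. Null pools 2 and 3 lay above every wild-type pool, while null pool 1 lay between the wild-type values, so the groups overlapped. The means were 3126 ± 761 and 2098 ± 467 (SD, n = 3 each), 1.48-fold higher in null, with a log2 difference of 0.57 ± 0.31 (SE) and an interval from -0.19 to 1.33 (limma, adjusted p = 1.00). The second probe set, 1418147_at, had 379.7, 462 and 358 in null and 293, 226 and 359 in wild-type pools. Its log2 difference was 0.47, with an interval from -0.18 to 1.12. The third, 1448977_at, ran from 74.9 to 168 over the 6 pools and had a log2 difference of 0.27. That value was 0.016 without wild-type pool 3 and 0.070 without null pool 2. By replicate number, the 3 differences of the main probe set were 0.06, 1.16 and 0.49, so replicate 2 held most of the shift. Replicate 2 was also the widest for 1418147_at, at 1.04, but replicate 3 was for 1448977_at, at 0.58. A name ending in _s_at marks a probe set whose probes can match more than 1 transcript, also of different genes. This holds for the main probe set here and for 1 of Tfap2a, and their probe sequences were not examined.

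Tfap2a, needed for surface ectoderm and neural crest, had nearly the same mean in both genotypes. Its main probe set, 1421996_at, had 372, 442 and 386 in null pools and 309, 355 and 584 in wild-type pools, means of 400.0 ± 37.0 and 416 ± 147 (SD, n = 3 each). Wild-type pool 3 was the highest of the 6 and the null values lay inside the wild-type range. The log2 difference was -0.01 with an interval from -0.76 to 0.75, which corresponds to 0.592-fold to 1.68-fold (limma, adjusted p = 1.00). The probe set 1426048_s_at showed the same order of wild-type pools, with 151, 196 and 358, against 249, 262 and 305 in null pools. Its log2 difference was 0.30. Without wild-type pool 3 it was 0.65, and without wild-type pool 1 it was 0.03. The main probe set moved to 0.27 without wild-type pool 3, and to 0.045 and 0.018 without null pools 1 and 3. The dim 1421995_at, with signals of 10.2 to 79.9, went the other way at -0.83. So the 3 probe sets of Tfap2a did not share a direction, and the values of both bright ones moved with single pools.

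Gata2 was higher in value in null pools on both of its probe sets. The dimmer one, 1428816_a_at, had 176, 194 and 149 in null pools and 121, 128 and 115 in wild-type pools. Every null pool lay above every wild-type pool, the only such case among the 17. The means were 173 ± 22.6 and 121 ± 6.51 (SD, n = 3 each), 1.42-fold higher, with a log2 difference of 0.51 ± 0.21 (SE) and an interval from -0.01 to 1.02 (limma, adjusted p = 0.991). The main probe set, 1450333_a_at, had 609.6, 484 and 606 in null and 362, 478 and 518 in wild-type pools. Null pool 2 lay below wild-type pool 3, so here the groups overlapped. The log2 difference was 0.33 with an interval from -0.27 to 0.93, and without wild-type pool 1, the lowest, it was 0.18. For the dimmer probe set leaving out that pool gave 0.51. A name ending in _a_at marks probes that match several transcripts of 1 gene, so these values do not separate transcripts from the different Gata2 start sites.

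Gata3, the relative of Gata2 in trophoblast and surface ectoderm, had 1 probe set, with 171, 70.4 and 65.2 in null pools and 46.9, 105 and 111 in wild-type pools. Null pool 1 was the highest and wild-type pool 1 the lowest of the 6. In replicates 2 and 3 the null pool lay below the wild-type pool. The log2 difference was 0.17 with an interval from -1.16 to 1.51 (limma, adjusted p = 1.00). It became -0.27 without null pool 1 and -0.23 without wild-type pool 1. By replicate number the differences were 1.86, -0.58 and -0.76. The direction for Gata3 thus rested on replicate 1.

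RefSeq promoter windows (assembly GRCm38.p6) were on hand for 4 members, Gata2, Gata3, Grhl3 and Tfap2a, with 6 windows in all. The 250 bases before each start site were searched on both strands for letters that the members' own families bind, and for a TCF/LEF core, through which Wnt signalling acts. The letters were GCCNNNGGC for AP-2, AGATAA for GATA factors, AACCGGTT for grainyhead factors, TAATTA for homeodomain proteins and CTTTGAT for TCF/LEF. AP-2 letters occurred in 13.7% of 32851 RefSeq windows of the same length, GATA letters in 9.99%, homeodomain letters in 4.84%, TCF/LEF letters in 3.21% and grainyhead letters in 0.116%. Of the 6 member windows, 2 held AP-2 letters, 1 held homeodomain letters, and 0 held the others. The 2 with AP-2 letters were 74.0% (Gata2, downstream start) and 70.0% (Gata3) G and C, above the median of 52.4%. The AP-2 letters are themselves rich in G and C, and the part of base composition in these matches was not tested. A match is a description of the letters and shows no binding. The window before the upstream Gata2 start site is shown whole because Gata2 had the only probe set without overlap. It lies within the span of the lncRNA gene Gm38708, is 67.2% G and C (median of all windows 52.4%) and held none of the 5 motifs. The 3 stretches of 30 bases carry the matches, in capitals, and lie inside the annotated span of their own gene, downstream of its outermost start. The Tfap2a stretch also lies within the span of the lncRNA gene Gm26688. Their place in exons or introns was not analysed here. Each is written 5' to 3' on the gene's strand.
Gata2, upstream start, chr6:88193641-88193890, plus strand: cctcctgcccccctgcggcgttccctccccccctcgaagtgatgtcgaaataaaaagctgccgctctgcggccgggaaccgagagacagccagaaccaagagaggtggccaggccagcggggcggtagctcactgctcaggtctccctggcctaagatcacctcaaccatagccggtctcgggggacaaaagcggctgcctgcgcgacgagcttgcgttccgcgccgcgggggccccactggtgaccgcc
Gata2, downstream start, AP-2 letters, chr6:88198432-88198461, plus strand: tgcagggtctGCCCACGGCgaaggtcccct
Gata3, AP-2 letters, chr2:9878807-9878836, minus strand: cctctGCCCTAGGCgGCCCTTGGCggcgcc
Tfap2a, homeodomain letters, chr13:40734935-40734964, minus strand: cgcgtccttcttTAATTAaaaaggagaatc
The Gata3 window held 3 AP-2 matches in all, of which the stretch shows 2.

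Grhl2, which maintains epithelial cell junctions, was measured by 4 probe sets that did not share a direction. The main one, 1427046_at, had 392, 358 and 326 in null pools and 374, 334 and 236 in wild-type pools, with a log2 difference of 0.21 and an interval from -0.42 to 0.84 (limma, adjusted p = 1.00). The groups overlapped, and wild-type pool 3 was the lowest of the 6. Without that pool the difference was 0.016. In the other direction, 1431877_a_at had 87.1, 128 and 97.9 in null and 93.6, 177 and 130.0 in wild-type pools, which differed by -0.33 on the log2 scale. The dim 1452643_at stood at 0.16, with null pools at 42.8 to 47.1 and wild-type pools at 23.1 to 54.6. The largest difference of the 17 was that of 1431878_at, at 1.37 ± 0.57 (SE) with an interval from -0.05 to 2.78 (limma, adjusted p = 0.999). Its signals were only 34.0, 14.9 and 33.1 in null and 5.48, 9.65 and 18.5 in wild-type pools, and null pool 2 lay below wild-type pool 3. With 50 added to every signal before taking log2, its difference was 0.33.

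Grhl3, an early marker of surface ectoderm and later of the epidermal barrier, had 1 probe set and lower values in null pools. The signal was 135, 297 and 202 in null and 176, 311 and 307 in wild-type pools. In each genotype pool 1 was the lowest and pool 2 the highest, and the ranges overlapped over most of their length. The log2 difference was -0.35 with an interval from -1.35 to 0.65, and the differences by replicate number were -0.38, -0.06 and -0.60 (limma, adjusted p = 1.00). Its size moved with single pools: it was -0.061 without null pool 1, and -0.63 and -0.62 without null pool 2 and wild-type pool 1.

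Dlx5, a homeodomain gene of the border between neural plate and surface ectoderm, had null signals of 106, 94.8 and 124, inside the wild-type values of 138, 79.2 and 151. The log2 difference was -0.13 with an interval from -0.93 to 0.66 (limma, adjusted p = 1.00). Without wild-type pool 3 it was 0.04. Dlx3, which acts in placenta and skin, had 2 probe sets near or below the median signal of all probe sets. On 1450475_at the signal was 102, 92.3 and 31.7 in null and 82.8, 93.6 and 99.3 in wild-type pools. Null pool 3 alone was low, and without it the log2 difference moved from -0.46 to 0.08. On 1422037_at the values ran from 6.45 in null pool 2 to 73.1 in wild-type pool 3, with a difference of -0.74 and an interval from -3.23 to 1.76. For that probe set it was null pool 2 that set the direction: without it the difference was 0.24.

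By replicate number, 5 of the 17 probe sets were higher in null in all 3 replicates and 3 were lower in all 3. Over all probe sets these shares were 15% and 13.7%. The 5 were 1 of Tfap2c, both of Gata2 and 2 of Grhl2, and the 3 were 1 each of Grhl2, Grhl3 and Dlx3. Both Gata2 probe sets kept 1 sign across the 3 replicates, whereas Grhl2 had probe sets in either group. The median over the 17 was 0.07 in replicate 1, 0.26 in replicate 2 and -0.23 in replicate 3, so replicate 3 differed in sign from the others.

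**Figure D3:**
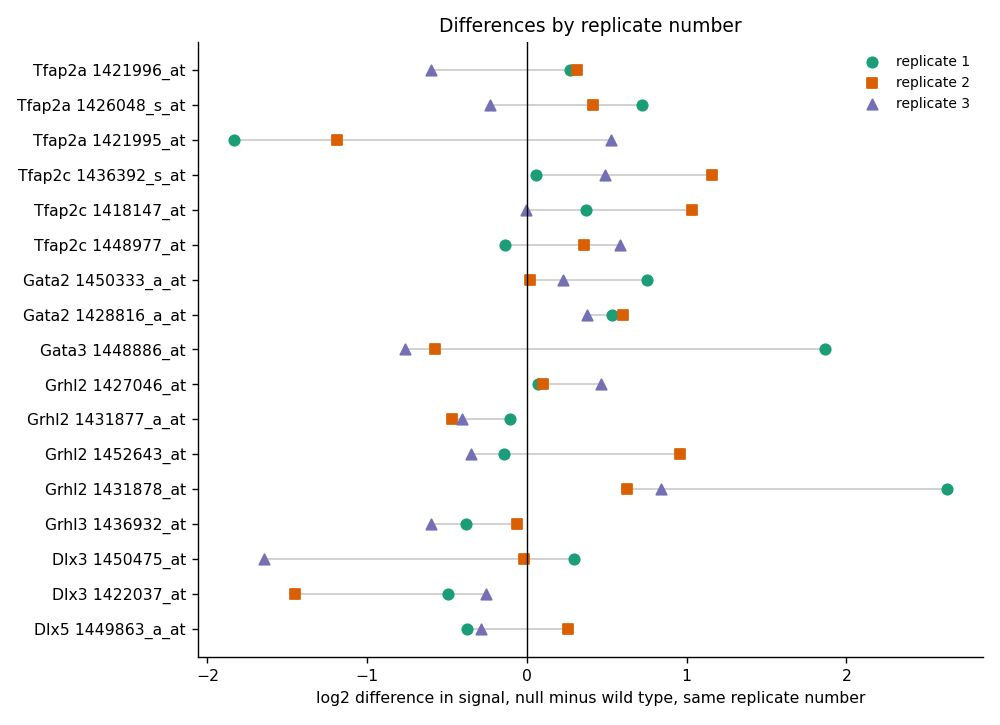
Log2 difference in signal, null minus wild type, between pools of the same replicate number, for the 17 probe sets. The 3 points of Gata2 1428816_a_at lie close together, between 0.38 and 0.60, whereas those of Gata3 run from -0.76 to 1.86.

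The other genes of the 4 families, 12 in all, were mostly dim, with 8 of 12 below the median signal. Of these, 8 were higher and 4 lower in value in null pools, with a median log2 difference of 0.45, against 50.8% of 18193 genes higher and a median of 0.00 (to 2 decimals). At an unadjusted p under 0.05 there was 1 higher and 0 lower, against 2.56% and 1.9% of genes. After adjustment 0 passed (0% of genes). That 1 gene was Dlx2, a relative of Dlx5, with 33.2, 53.9 and 43.1 in null and 9.82, 3.13 and 3.46 in wild-type pools (log2 difference 3.17, limma, adjusted p = 0.39). Its wild-type signals were at the floor of the array, where log2 values vary widely. Gata6, of mesoderm and endoderm, came next with 833, 689 and 706 against 609.8, 468 and 457.

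Genes that mark epithelium and later surface ectoderm, such as keratins, claudins and the Grhl targets Cdh1 and Epcam, also went both ways. Of 19 measured, 10 were higher and 9 lower in null, the median log2 difference was 0.06, and 0 passed the test in either direction, also at an unadjusted p under 0.05. Krt19, a simple-epithelium keratin, had 871, 606 and 769 against 559, 389 and 531. Its null pools lay above the wild-type pools, with a log2 difference of 0.60 (limma, adjusted p = 1). Krt17, a keratin of stratified epithelium, was dim, with 22.6, 4.42 and 20.1 against 52.4, 24.5 and 35.1. Summed over the 19 genes, the signal of null pools was 27804 to 35329 and that of wild-type pools 26273 to 30997. These ranges overlapped. Most of each sum was the signal of Krt8, Krt18, Epcam and Cdh1, while 5 of the 19 genes lay below the median signal of all probe sets. The sum thus says little about the dim genes.

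Genes of BMP ligands, which act upstream of several members, and of BMP targets were higher in value in null for 8 of 10. Over all genes 50.8% were higher. The median of the 10 was 0.35, and 0 were past the test (0 at an unadjusted p under 0.05). The 2 lower genes were the ligand gene Bmp4, at -0.13, and the target Id1, at -0.05. Bmp2 had 1945, 655 and 499 against 437, 490.4 and 306. Null pool 1 was far above the other pools. Of 10 genes of neural plate border and neural crest 7 were higher in value, with a median of 0.18 and 0 past the test, also unadjusted.

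Lists of other cells in which members are expressed moved beside Tfap2c and Gata2 as follows, and their part in the values of these genes was not tested. Of extraembryonic ectoderm and trophoblast genes 8 of 8 were higher in value in null, beside 50.8% of all genes. Their median was 0.65, and their summed signal 1707 to 2091 against 924 to 1574. Among them Elf5, a defining trophoblast factor, had 115, 118 and 72.5 against 10.4, 24.3 and 73.1, and Tpbpa had at most 76.5 in any pool. Of the 8 genes, 4 lay below the median signal of all probe sets, Elf5 and Tpbpa among them. Plac1 was the largest part of each sum, at 672 to 1189 in null and 314 to 817 in wild type. The brighter Rhox6, Eomes and Hand1 had log2 differences of 0.36, 0.20 and 0.07. Primordial germ cell genes were higher in value for 4 of 6, with a median of 0.47 and a summed signal of 1641 to 2593 against 1228 to 1637. The germ cell regulator Prdm1 had 312, 314 and 334 against 187, 267 and 242. The 2 lower genes were Dppa3 and Prdm14, at -0.54 and -0.35, both below the median signal. Kit and Ifitm3 made up most of the summed signal, at 554 to 1064 and 536 to 919 in null pools. In wild-type pools they had 405 to 606 and 396 to 607. Blood and endothelial genes were higher for 7 of 10, with a median of 0.31 and overlapping sums of 2394 to 3149 and 2214 to 3051. Amnion and allantois genes were higher for 4 of 6, with a median of 0.30 and sums of 2437 to 3461 against 3336 to 5079. Most of that sum was the signal of Cdx2, which the streak also expresses, at 2193 to 2818 in null and 3009.7 to 4669 in wild type. At an unadjusted p under 0.05 these 4 lists held 1 gene higher (Elf5) and 1 lower (Lmo2), and 0 passed after adjustment. No gene of the 4 lists was listed at 0, but some had signals of a few units in single pools. The absence of zeros thus does not show that every gene was detected.

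For scale, 6 of 6 neural plate genes were higher in value in null, with a median of 0.91 and 3 at an unadjusted p under 0.05. The 11 node and streak genes had a median of -0.97, with 5 lower at an unadjusted p under 0.05. Over all genes these shares were 2.56% higher and 1.9% lower. The smallest p-values in the node and streak list were those of Cdx1 and of the Wnt feedback target Axin2. Both lists were chosen with earlier results of these data known, so their distance from the members cannot serve as a test. The 8 main probe sets of the members had a median of 0.08. Whether the members differed from either list was not tested.

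**Figure D4:**
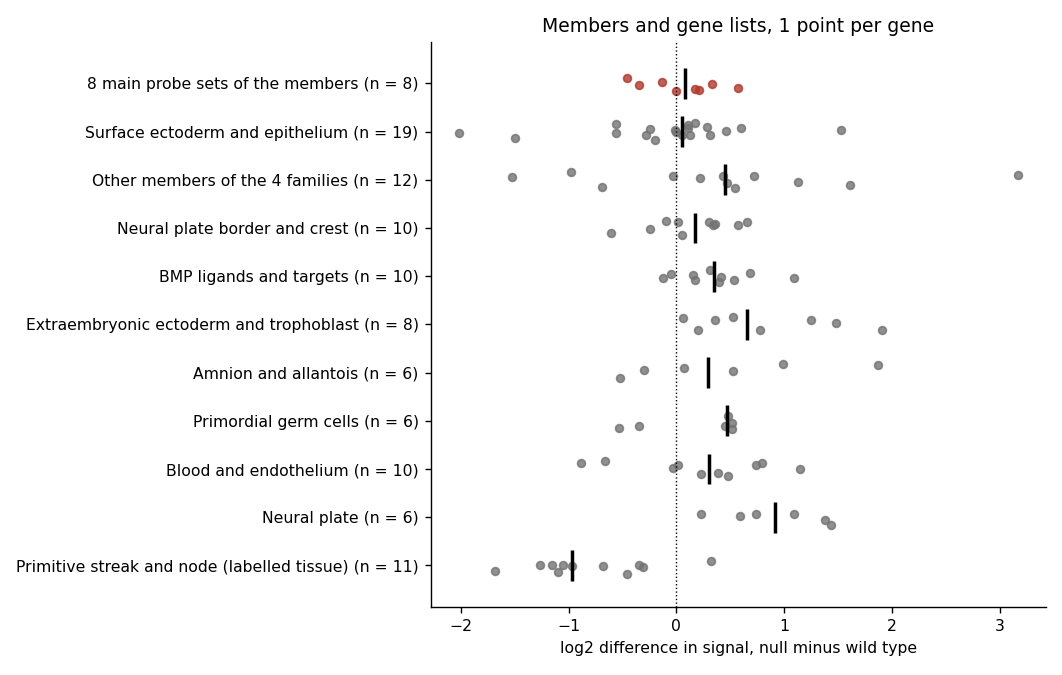
Log2 difference in signal, null minus wild type, with 1 point per gene (main probe set) and a bar at the median, for the 8 members in red and 10 gene lists in grey. The members spread around 0 from -0.46 to 0.57, while the neural plate list lies to the right of 0 and all but 1 of the node and streak genes lie to the left.

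The genes most like the main Tfap2c probe set across the 6 arrays, among 9685 other genes with a mean log2 signal above 7, were Krt81 (Pearson r = 0.994), Dazap1 (0.988) and Dedd (0.984). Krt81, a hair keratin gene, had 131, 189 and 202 in null and 132, 99.0 and 149 in wild-type pools. Wild-type pool 2 was the lowest and null pools 2 and 3 the highest, as for Tfap2c. With 6 arrays 60 genes had an r above 0.9, so these names describe the arrays and no more. Tfap2c was both the brightest member and the one with the smallest p among main probe sets.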

How the data were processed

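Total RNA of single embryos (30 to 50 ng) went through a first amplification, and amplified RNA of 3 embryos of one genotype was pooled (600 ng) for the second, per the labels' protocols. Each pool went on 1 Affymetrix mouse genome array. The values deposited for each array are linear intensities, 1 per probe set. RMA is named in the submitters' processing notes with no version. RMA gives log2 values of equal distribution, whereas these share only a trimmed mean of 500 (2% left off at either end), so the step behind them is unknown. The authors' intensities were turned to log2 with no further correction, and probe sets of a few units vary widely on that scale.

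After removal of 64 control probe sets, 45037 were tested, of which 34945 carry 1 gene symbol, 932 several and 9160 none here, for 18193 genes. The genotypes were compared with limma 3.58.1 in R 4.3.3 (lmFit, eBayes, no filter), two-sided, adjusted over all probe sets by Benjamini-Hochberg, threshold 0.05. Genes of the further lists were taken at their main probe set from the same fit. All probe sets of the members were named, and of each list up to 2 genes with the smallest p. Exceptions chosen after their values were seen are Bmp2 beside its list's counts, Elf5, Tpbpa, Prdm1 and Lmo2. Further ones, named to show what a list's count or sum rests on, are Rhox6, Eomes, Hand1, Dppa3, Prdm14 and Kit. Bmp4, Id1, Krt8, Krt18, Epcam and Cdh1 were named for the same reason. The members and lists were chosen with earlier results of these data known. Genes of a list that the annotation gives no single-symbol probe set are not counted as measured.

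Both genotypes have replicates 1, 2 and 3 in the labels. Deviations from the genotype means correlated at 0.422, 0.454 and 0.282 between arrays of one number, over 18088 probe sets with a mean log2 above 7, and at 0.0537, 0.0524 and 0.0338 over all probe sets. With the bound of 0.1, the bright probe sets pair the arrays and all probe sets together do not. What a number shares is not given. On simulated data of 45037 probe sets with 200 changed, the fit recovered 0% of changes of 1 on the log2 scale, 40.9% of changes of 2 and 98.5% of changes of 4. The changed probe sets were drawn from those at or above the median signal, with variances moved toward the typical one there. These shares therefore do not apply to the 4 member probe sets below the median signal. The alternatives are a replicate block, trend and robust options, an offset, other scalings, a signal filter, main probe sets, array weights and leaving out each array.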

Additional observations from a re-analysis of the deposited data

How the results depend on the processing

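No member probe set passed the threshold under any of the 15 alternatives. The lowest adjusted p of a member was 0.461, for Tfap2c 1436392_s_at in the fit with the replicate block and the trend and robust options (limma, log2 difference 0.57). Over all probe sets 22 passed in that fit, 1 with trend and robust options alone, and 0 with the replicate block alone. With 1 main probe set per gene, 4 of 8 members (50%) were higher in null, in place of 10 of 17 probe sets (58.8%). Of the 10, 3 were of Tfap2c, 3 of Grhl2 and 2 of Gata2, so these genes counted more than once. The block changed no call of a member. Of 242 single values, 233 kept their direction, and the 9 that turned were all from leaving out 1 array. The replicate block, the trend and robust options, the signal filter and the choice of main probe sets leave each log2 difference as it was. Values from these alternatives could not turn, so the count of 233 overstates how firm the directions are. Leaving out 1 array moved the log2 difference of Tfap2a 1421996_at between -0.19 and 0.27, Gata3 between -0.27 and 0.42, Dlx3 1422037_at between -1.39 and 0.24, Dlx3 1450475_at between -0.76 and 0.079, Grhl2 1452643_at between -0.25 and 0.37, and Dlx5 between -0.42 and 0.044. The directions, but not the sizes, of the other 11 probe sets held under every alternative that could turn a value. All those of Tfap2c, Gata2 and Grhl3 were among these 11. Their ranges without 1 array were 0.39 to 0.79, 0.29 to 0.63 and 0.016 to 0.42 for Tfap2c (main, 1418147_at, 1448977_at), 0.18 to 0.44 and 0.42 to 0.61 for Gata2 (main, 1428816_a_at) and -0.63 to -0.061 for Grhl3. For Grhl2 they were 0.016 to 0.35 (main), -0.56 to -0.10 (1431877_a_at) and 0.94 to 1.81 (1431878_at), and for Tfap2a 0.03 to 0.65 (1426048_s_at) and -1.24 to -0.18 (1421995_at). The members' median ran from 0.03 to 0.27 without 1 array, and was 0.05 with array weights. The number of arrays, 3 a genotype, limits the precision: the 95% intervals of the members were 1.02 to 4.99 wide on the log2 scale, widest at the dim Dlx3 1422037_at.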
